A study of Mus musculus with 45 samples.

Results

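Mouse embryonic stem cells of 3 related lines, O4G, R1 and R1 clone 3, were compared with each other in one medium, 2i-LIF. The members were chosen by their labels: the R10 libraries numbered n1 and n2 of each line, 6 in all, with the R9 libraries of O4G and of R1 (1 each) as a check of sign, so 8 of the 45 libraries of the series. The study used Oxford Nanopore long reads to profile the reprogramming of neural progenitors to pluripotency, with embryonic stem cells among its controls. R10 libraries were PCR-amplified cDNA of total RNA, and R9 libraries were direct cDNA of poly(A)-enriched RNA. All 3 lines are labelled wild type. R1 is a widely used mouse line, O4G is a line derived from R1 that carries a green fluorescent protein reporter under the Oct4 promoter, and R1 clone 3 is a single clone whose derivation the labels do not give. The labels do not say that n1 and n2 are separate cultures, so p-values measure the spread between these libraries, which may be technical. In bulk RNA, fewer cells expressing a gene and less RNA per cell cannot be told apart.

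Embryonic stem cells in 2i-LIF are held in the naive state of pluripotency by LIF, which acts through STAT3, and by inhibitors of the kinases MEK and GSK3, which lower ERK signalling and raise Wnt pathway activity. Transcription factors such as Oct4 (Pou5f1), Sox2 and Nanog keep the state, while Otx2 and the de novo methylation machinery mark the formative and primed states that follow it. Mouse stem cell lines are known to gain or lose whole chromosomes in culture, and subclones of one line can differ in this and in genomic imprinting. DNA was not measured in these libraries.

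Depth ranged from 2226725 reads on genes in O4G n2 to 4236442 in O4G n1, and was 1053853 and 1072087 in the R9 libraries of O4G and R1. Libraries of one line correlated at 0.98 to 0.982 over 14750 genes and libraries of different lines at 0.963 to 0.979 (Pearson's r across genes, which are not independent replicates). Reads on mitochondrial genes made up 1.81 to 2.35% in the 6 libraries. Pluripotency genes were high in all 6: Pou5f1 lay between 885 and 1110 CPM, Nanog between 890 and 1110 CPM and Sox2 between 79.8 and 169 CPM. Markers of other cell types were mostly low. Of 13 neural progenitor markers 6 were under 1 CPM in every library, with Fabp7, Olig2 and Hes5 among those at 0, and the list summed to 177 to 380 CPM, of which Vim gave 164 to 366 CPM. Of 14 fibroblast markers 9 were under 1 CPM, with Dcn, Postn and Twist2 at 0, and the list summed to 172 to 269 CPM, of which Fn1 gave 155 to 257 CPM. Trophoblast markers summed to 64.1 to 104 CPM and genes of the two-cell-like state to 8.05 to 18.6 CPM. Primitive endoderm markers summed to 258 to 399 CPM, of which Sparc gave 212 to 336 CPM.

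Promoters of 4 genes with large differences are shown here as sequence for context, and no result rests on them. They are the RefSeq windows, 250 bases before to 50 bases after the start, of Eif2s3y and Ddx3y, which stand for chromosome Y, and of Trh and Fhl1, which fell in R1 clone 3 on chromosomes 6 and X. RefSeq gave them on build GRCm38.p6, 5′ to 3′ on the gene's strand, with each CG dinucleotide, the site of DNA methylation, in capitals.
Eif2s3y: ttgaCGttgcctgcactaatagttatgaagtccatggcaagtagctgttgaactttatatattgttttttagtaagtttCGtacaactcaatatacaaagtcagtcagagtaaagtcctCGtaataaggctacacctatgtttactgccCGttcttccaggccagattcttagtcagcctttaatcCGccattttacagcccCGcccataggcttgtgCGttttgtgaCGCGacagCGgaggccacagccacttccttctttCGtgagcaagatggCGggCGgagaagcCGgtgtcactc
Ddx3y: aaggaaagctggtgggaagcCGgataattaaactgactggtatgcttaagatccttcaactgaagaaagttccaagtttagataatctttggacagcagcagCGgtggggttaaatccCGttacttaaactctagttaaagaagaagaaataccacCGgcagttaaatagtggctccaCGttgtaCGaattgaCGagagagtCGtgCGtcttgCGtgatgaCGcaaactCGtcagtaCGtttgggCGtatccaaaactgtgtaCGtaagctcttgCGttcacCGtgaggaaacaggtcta
Trh: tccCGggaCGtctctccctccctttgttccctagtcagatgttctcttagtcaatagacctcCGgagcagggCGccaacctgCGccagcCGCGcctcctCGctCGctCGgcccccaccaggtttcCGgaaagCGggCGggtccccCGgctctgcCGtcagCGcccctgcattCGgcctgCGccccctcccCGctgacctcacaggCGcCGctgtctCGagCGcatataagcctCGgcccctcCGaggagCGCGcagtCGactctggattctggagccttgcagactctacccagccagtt
Fhl1: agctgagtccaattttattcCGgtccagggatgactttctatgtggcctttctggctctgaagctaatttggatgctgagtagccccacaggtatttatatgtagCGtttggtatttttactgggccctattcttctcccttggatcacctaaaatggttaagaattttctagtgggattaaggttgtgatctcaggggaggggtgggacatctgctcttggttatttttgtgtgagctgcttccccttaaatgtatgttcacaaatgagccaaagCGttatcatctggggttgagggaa
The first lies at chrY:1010345-1010644 (+ strand), the second at chrY:1286564-1286863 (- strand), the third at chr6:92244601-92244900 (- strand) and the last at chrX:56779433-56779732 (+ strand). They hold 14, 17, 28 and 3 CG. Among all 27025 promoters in the table, 94.2% hold at least 1 CG, and 36.9%, 31.9%, 14.0% and 76.2% hold as many as these 4 or more. The Eif2s3y, Trh and Fhl1 windows lie inside the gene spans printed below. Which start these cells use was not examined, and methylation was not measured.

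To ask how the lines differ, limma was fitted over the 6 libraries on log2(CPM + 1). Calls required an adjusted p (Benjamini-Hochberg) below 0.05 together with a log2 difference of 1 or more between some pair of lines. The test called 557 of 14750 genes (3.78%). O4G and R1 were the closest pair, with 116 genes called (0.786%), 55 higher (0.373%) and 61 lower (0.414%) in O4G. O4G and R1 clone 3 differed in 272 genes (1.84%), 137 higher (0.929%) and 135 lower (0.915%) in O4G. R1 clone 3 and R1 differed in 454 genes (3.08%), 212 higher (1.44%) and 242 lower (1.64%) in the clone. That split turned with each library centred on its median, to 269 higher and 217 lower, as did that of O4G against R1, to 66 and 56. DESeq2 on the recovered reads called 302 genes three-way and 55, 136 and 230 genes for the 3 pairs in this order. These 3 comparisons share libraries, so their counts are not independent of each other. Each line rests on 2 libraries, and leaving out a library of a line lowered the counts of that line's pairs. The three-way count was 364 without O4G n1, 344 without O4G n2 and 343 without R1 n1. For O4G against R1 the count was 9 without O4G n1, 25 without O4G n2, 26 without R1 n1 and 54 without R1 n2. For O4G against R1 clone 3 it was 87 without O4G n1 and 95 without O4G n2, and for R1 clone 3 against R1 it was 214 without R1 n1 and 286 without R1 n2. Leaving out a library of the clone, which is outside that pair, gave 129 and 124 genes for O4G against R1. In these fits the remaining library is assumed to vary like the other lines.

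Among the 557 genes the line furthest from the other two was most often R1 clone 3. The clone stood furthest from the middle line in 306 genes (54.9%), R1 in 161 (28.9%) and O4G in 90 (16.2%). Over all tested genes the shares were 38.7%, 34.1% and 27.2%. By class, 453 of 11734 protein-coding genes were called (3.86%), 33 of 733 annotated long non-coding RNA genes (4.50%), 27 of 568 numbered unannotated genes (4.75%) and 26 of 628 unannotated antisense genes (4.14%). Lower shares were called among genes with joined names (10 of 309, 3.24%), other annotated genes (8 of 752, 1.06%) and unmatched genes (0 of 26).

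Another R1 library in 2i-LIF, without n number, was kept out of the fit. Its mitochondrial share was 0.124%, below the range of the 6 numbered libraries. Adding it to the R1 line left 4 genes called in the three-way test (1933 at an unadjusted p under 0.05), 0 for O4G against R1 (1441), 1 for O4G against R1 clone 3 (1305) and 5 for R1 clone 3 against R1 (2168), by limma with the same thresholds. The differences between lines reported here are differences between the 6 numbered libraries. Words such as highest, lowest and alone also refer to these 6 unless another library is named.

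R1 clone 3 had almost no reads from Eif2s3y, Ddx3y, Uty and Uba1y, genes of the short arm of chromosome Y that have relatives on chromosome X. Eif2s3y, a subunit of translation initiation factor eIF2 (chromosome Y, 1009670 to 1047387), was at 43.1 and 41.2 CPM in O4G, 46.5 and 37.7 CPM in R1, and 0.29 and 0 CPM in R1 clone 3. Ddx3y, a DEAD-box RNA helicase (chromosome Y, 1260716 to 1286633), was at 16 and 26.4 CPM in O4G, 31.4 and 32.2 CPM in R1, and 0 and 0.387 CPM in the clone. All 4 libraries of O4G and R1 lay above both libraries of the clone for each gene. The log2 difference of R1 clone 3 from R1 was -5.24 ± 0.25 (SE) for Eif2s3y, with a limma adjusted p of 1.56e-07, and -4.80 ± 0.31 for Ddx3y, with an adjusted p of 2.29e-06. Against O4G the clone's values gave O4G minus R1 clone 3 differences of 5.25 and 4.2. On this scale the pseudocount of 1 CPM shortens the change of a gene near 0.

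Uty, a Y-linked relative of a histone demethylase, was at 2.59 and 3.14 CPM in O4G, 4.41 and 7.22 CPM in R1 and 0.29 and 0 CPM in R1 clone 3. Uba1y, a ubiquitin-activating enzyme, was at 3.06 and 5.38 CPM in O4G, 1.30 and 1.97 CPM in R1 and 0.29 and 0 CPM in the clone. The groups did not overlap for either gene, and Uba1y passed the test only against O4G (adjusted p = 0.00773; 0.082 against R1). Summed over Eif2s3y, Ddx3y, Uty and Uba1y, O4G had 445 reads, R1 563 and R1 clone 3 had 4. As a ratio of summed CPM, 68.9 in O4G against 0.665 in the clone, this was 104 (95% interval 40.2 to 382), and for R1 with 81.8 it was 123 (47.8 to 453). The intervals cover counting error only.

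Chromosome Y gave 9 tested genes, of which 5 were called higher in O4G than in the clone (55.6%, beside 0.929% of all genes) and 4 lower in the clone than in R1 (44.4%, beside 1.64%). Between O4G and R1 no chromosome Y gene was called. Gm21647, outside the short arm (34300564 to 34316815), was among those called in both pairs, at 1.88 and 2.69 CPM in O4G, 3.11 and 2.95 CPM in R1 and 0 in both libraries of the clone, where a count of 0 allows up to 0.872 and 1.16 CPM. Gm47283, annotated at the far end of the chromosome (90725508 to 90823006), kept reads in the clone: 133 and 167 CPM in O4G, 150 and 148 CPM in R1 and 81.8 and 72.0 CPM in R1 clone 3. The clone's values were lower than all 4 others, with a log2 difference from R1 of -0.95 ± 0.13 (SE) and a limma adjusted p of 0.000666, short of the size limit. Gm47283 supplied 282 and 186 of the clone's 299 and 200 reads assigned to chromosome Y. Whether its reads came from chromosome Y was not tested. In the 36 libraries of the series outside the stem cells, Eif2s3y lay between 30.4 and 128 CPM with a median of 63.6. Ddx3y lay between 10.6 and 57.6 CPM with a median of 32.8, so both genes were detected in every one of them. The R1 library without n number was lower than numbered R1 for Eif2s3y, at 15.7 CPM, Ddx3y, at 12.3 CPM, and Uty, at 0.373 CPM. It was higher for Uba1y, at 2.24 CPM, and for Gm47283, at 331 CPM. In R9, Eif2s3y was at 90.9 CPM in O4G and 29.8 CPM in R1, and Ddx3y at 38.8 and 10.2 CPM.

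Whole chromosomes differed between the lines by a small amount that most of their genes shared. For each library the median deviation of a chromosome's genes from the mean of the 6 libraries was computed on the log2(CPM + 1) scale. Chromosomes 6, 7 and 16 stood high in R1. On chromosome 6, with 715 tested genes, the medians were 0.28 and 0.27 in R1, -0.12 and -0.12 in O4G, and -0.13 and -0.15 in R1 clone 3. On chromosome 16 they were 0.23 and 0.19 in R1, -0.08 and -0.06 in O4G and -0.09 and -0.11 in the clone. On chromosome 7 they were 0.21 and 0.15 in R1, -0.06 and -0.09 in O4G and -0.05 and -0.10 in the clone. Both R1 libraries lay above the other 4 on all 3 chromosomes, while O4G and the clone lay close together.

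**Figure D1:**
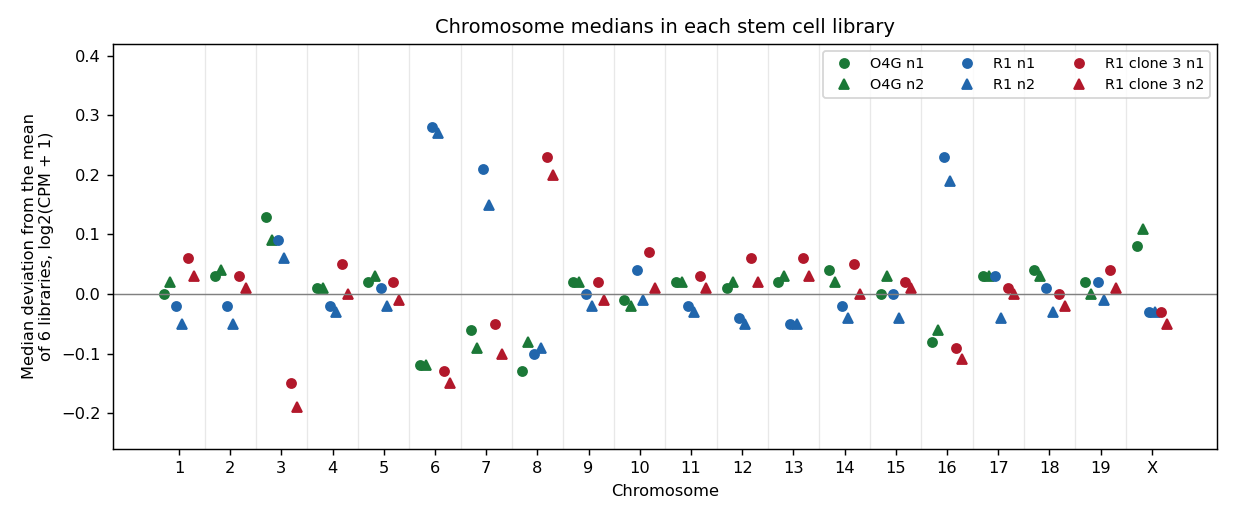
Median deviation of a chromosome's tested genes from the mean of the 6 libraries, log2(CPM + 1), by chromosome; colours give the line, circles n1 and triangles n2. R1 stands above the other lines on chromosomes 6, 7 and 16, and R1 clone 3 stands below on chromosome 3 and above on chromosome 8, where O4G and R1 lie together.

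R1 clone 3 stood apart on chromosomes 3 and 8. Chromosome 3 was at -0.15 and -0.19 in the clone, 0.13 and 0.09 in O4G and 0.09 and 0.06 in R1. Chromosome 8 was at 0.23 and 0.20 in the clone, -0.13 and -0.08 in O4G and -0.10 and -0.09 in R1. The clone was thus lowest on the former and highest on the latter, with no overlap with the other lines. O4G stood slightly high on chromosome X, at 0.08 and 0.11, where the other 4 libraries lay between -0.05 and -0.03. The n1 and n2 libraries of a line differed by at most 0.05 to 0.07 on any of these 20 chromosomes, and the pooled standard deviation of a chromosome median within a line was 0.021.

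As differences between lines, the median gene of chromosome 6 was lower than in R1 by -0.41 in O4G and by -0.41 in R1 clone 3, a ratio of 0.750 and 0.751. Of the 715 genes, 83.2% were lower in O4G than in R1 and 81.3% lower in the clone. Chromosome 16 gave -0.31 and -0.32, a ratio of 0.808 and 0.801, and chromosome 7 gave -0.25 and -0.26, a ratio of 0.843 and 0.833. Chromosome 3 was lower in the clone than in R1 by a median of -0.25 (ratio 0.843, with 72.8% of genes lower), and chromosome 8 was higher by 0.30 (ratio 1.23, with 20.0% of genes lower). The other 15 chromosomes had medians between -0.01 and 0.09 for R1 clone 3 minus R1, and 17 chromosomes lay between -0.02 and 0.12 for O4G minus R1. The median over all tested genes was 0 for O4G minus R1 and -0.01 for the clone minus R1.

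The shifts ran along the whole length of these chromosomes. In windows of 20 Mb with at least 20 tested genes, all 8 windows of chromosome 6 were below 0 in O4G minus R1, between -0.48 and -0.33, and all 8 in R1 clone 3 minus R1, between -0.47 and -0.31. Chromosome 7 had all 8 windows below 0 and chromosome 16 all 5, in both differences from R1. On chromosome 3 all 8 windows were lower in the clone than in R1, between -0.35 and -0.18. On chromosome 8 all 7 windows were higher, between 0.26 and 0.36. Chromosome 10 differed in a part only: the third and the fourth windows from its start, with 70 and 152 genes, were at -0.21 and -0.30 in O4G minus R1 and at -0.32 and -0.27 in O4G minus R1 clone 3, while the other 5 windows lay between 0.01 and 0.14 and between -0.05 and 0.08. These 2 windows were singled out after their values were seen.

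Part of the called genes lay on these chromosomes, which were picked from the same values. Of the 61 genes called lower in O4G than in R1, 32 lay on chromosomes 6, 7 and 16 (52.5%, beside 16% of tested genes), so that 1.36% of genes there were called lower and 0.234% elsewhere. Of the 242 genes called lower in the clone than in R1, 107 lay on chromosomes 3, 6, 7 and 16 (44.2%, beside 20.5% of tested genes). Of the 137 genes called higher in O4G than in the clone, 20 lay on chromosome 3 (14.6%, beside 4.54% of tested genes), and of the 135 called lower, 22 lay on chromosome 8 (16.3%, beside 5.63%). Of the 212 genes called higher in the clone than in R1, 18 lay on chromosome 8 (8.49%, beside 5.63%). With each library's chromosome medians removed, an alternative chosen after these values were seen, 413 genes were called in the three-way test, 378 of them among the 557. The same step gave 69 genes for O4G against R1, 62 of them among the 116, and 348 for R1 clone 3 against R1, 316 of them among the 454. DNA copy number was not measured, so a change of copy number and a change of transcription along a chromosome cannot be told apart.

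The R9 libraries of O4G and R1 did not show the same chromosomes. Over the 487 genes of chromosome 6 with at least 5 CPM, O4G minus R1 had a median of 0.22 in R9 and -0.43 in R10. The R9 medians are given relative to the R9 median of all genes with at least 5 CPM. Chromosome 7 was at -0.06 in R9 and -0.26 in R10, and chromosome 16 at 0.00 and -0.32. R9 has 1 library per line, so these differences have no replicate check. The R1 library without n number differed from O4G by a median of 0.22 on chromosome 6, 0.32 on chromosome 7 and 0.08 on chromosome 16. These are again relative to the median of all genes compared. Other chromosomes of that library differed from O4G as well, by -0.41 on X, -0.21 on 13, -0.16 on 18, -0.15 on 3 and 0.10 on 8.

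O4G and R1 were the pair with the fewest called genes. The 10 largest rises in O4G included Agpat4, an acyltransferase of phospholipid synthesis, Ephx2, the soluble epoxide hydrolase, Gtsf1l, a relative of a germ cell zinc-finger protein, Tiam2, an exchange factor for Rac, and the zinc-finger gene Zfp989. Gtsf1l (chromosome 2, 163087036 to 163089648) was at 80.8 and 86.0 CPM in O4G, 22.1 and 26.9 CPM in R1 and 33.1 and 24.4 CPM in the clone. O4G alone was high, and the difference from R1 was 1.73 ± 0.18 (SE) with a limma adjusted p of 0.000623. Ephx2 (chromosome 14, 66084373 to 66124520) was at 88.6 and 65.4 CPM in O4G, 29.6 and 18.7 CPM in R1 and 31.0 and 24.0 CPM in the clone, a difference from R1 of 1.65 ± 0.22 with an adjusted p of 0.0022. O4G was again above all 4 other libraries. Zfp989 was high in O4G, at 18.1 and 16.6 CPM, and in the clone, at 15.1 and 12.0 CPM, and low in R1, at 2.86 and 3.61 CPM. The other rises were those of Nrep, Ctbs, Gm38324, Gm48377 and a joined gene of Zfp820 and Zfp995, with differences of 1.54 to 2.12. Reads of such zinc-finger genes may be split among close copies by the authors' counting.

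The 10 largest falls in O4G were those of 1700108F19Rik, Calml4, S100a1, Peg10, Pianp, Gpx6, Igfbp7, F3, Klhl3 and Stra8. S100a1, a calcium-binding protein (chromosome 3, 90511033 to 90514875), was at 10.4 and 12.1 CPM in O4G, 52.2 and 50.2 CPM in R1 and 16.2 and 15.5 CPM in R1 clone 3. R1 alone was high, with an O4G minus R1 difference of -2.10 ± 0.19 (SE), an adjusted p of 0.000623, and a clone minus R1 difference of -1.63. The non-coding gene 1700108F19Rik (chromosome 14, 76681106 to 76687310) was at 0 and 0.448 CPM in O4G, 8.82 and 8.86 CPM in R1 and 0.58 and 1.55 CPM in the clone. It too was high in R1 alone. F3, tissue factor, and Klhl3, an adaptor of a ubiquitin ligase, were likewise high in R1, at 4.93 and 6.23 CPM and at 5.19 and 4.59 CPM, against at most 1.16 CPM in each of the other 4 libraries. Stra8, a gene of meiotic entry that retinoic acid induces, was at 3.30 and 1.34 CPM in O4G, 12.2 and 7.55 CPM in R1 and 2.32 and 3.10 CPM in the clone. It lies on chromosome 6, as do Peg10 and Pianp. With chromosome medians removed, Stra8 was at -1.34 in O4G minus R1 (adjusted p = 0.127) and -1.11 in the clone minus R1 (0.116), called in neither.

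Trh, Fhl1 and Bdh2 were called lower in R1 clone 3 than in both other lines. Trh, the precursor of thyrotropin-releasing hormone (chromosome 6, 92242059 to 92248498), was at 263 and 141 CPM in O4G, 356 and 230 CPM in R1 and 51.9 and 19.4 CPM in the clone. Its difference from R1 was -3.13 ± 0.35 (SE), with a limma adjusted p of 0.000185, and O4G minus the clone was 2.56. Fhl1, a LIM-domain protein (chromosome X, 56682308 to 56880300), was at 24.5 and 21.1 CPM in O4G, 42.8 and 35.8 CPM in R1 and 4.35 and 4.65 CPM in the clone. The difference from R1 was -2.87 ± 0.22, with an adjusted p of 1.52e-05. For both genes the clone lay below all 4 other numbered libraries, and their RefSeq promoter windows stand above. In the R1 library without n number Trh was at 17.6 CPM and Fhl1 at 10.5 CPM. In R9, Trh was at 9.47 CPM in O4G and 11.2 CPM in R1, and Fhl1 at 5.68 and 4.65 CPM. Low levels of these genes were thus not limited to the clone.

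Bdh2, a hydroxybutyrate dehydrogenase (chromosome 3, 135281178 to 135304426), was at 9.66 and 8.51 CPM in O4G, 20.0 and 15.1 CPM in R1 and 1.16 and 0 CPM in the clone, a difference from R1 of -3.64 ± 0.37 (SE; limma adjusted p = 0.000113). Porcn, the enzyme that attaches a fatty acid to Wnt proteins, was at 8.24 and 2.24 CPM in O4G, 12.2 and 6.56 CPM in R1 and 0 and 0.775 CPM in the clone. The clone was lowest for both genes among the numbered libraries. Bdh2 was at 2.24 CPM in the R1 library without n number and at 0 CPM in the R9 libraries of O4G and R1. Porcn was at 10.8 CPM in the former, and in R9 at 0.947 CPM in O4G and 0.931 CPM in R1.

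The other leading falls of the clone against O4G were those of Bnip3, a mitochondrial receptor of mitophagy, Adgrl2, an adhesion receptor, Enox1 and Aire, the autoimmune regulator. Bnip3 was at 50.4 and 29.6 CPM in O4G, 23.4 and 20.0 CPM in R1 and 7.25 and 4.26 CPM in the clone, and O4G minus the clone was 2.59 ± 0.28 (SE) with an adjusted p of 0.000253. Adgrl2 was at 17.2 and 8.96 CPM, 9.86 and 12.1 CPM and 1.74 and 1.16 CPM in the same order of lines. Aire was at 6.83 and 4.48 CPM in O4G, 4.67 and 3.94 CPM in R1 and 0.29 and 0.387 CPM in the clone. Its neighbour on chromosome 10, Dnmt3l (78049633 to 78063622, beside Aire at 78024408 to 78038331), was also low in the clone.

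The genes with the largest rises in R1 clone 3 over R1 included Lefty1, Dppa3, Elobl, Gm48377 and Otx2. Dppa3, a maternal factor that protects imprinted methylation (chromosome 6, 122626420 to 122630298), was at 74.9 and 69.0 CPM in O4G, 26.7 and 37.7 CPM in R1 and 253 and 136 CPM in the clone. The 3 lines did not overlap, and Dppa3 was called in all 3 pairs: 1.15 for O4G minus R1, -1.36 for O4G minus the clone and 2.51 ± 0.23 (SE) for the clone minus R1, with adjusted p-values of 0.0166, 0.00442 and 7e-05. With DESeq2 the first lost its call (adjusted p = 0.12). The median gene of chromosome 6 had the opposite sign, lower in the clone than in R1.

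Lefty1, a secreted inhibitor of Nodal (chromosome 1, 180935012 to 180938401), was at 7.30 and 7.17 CPM in O4G, 4.67 and 2.30 CPM in R1 and 54.2 and 16.7 CPM in the clone. The clone was highest among the numbered libraries on average, by 2.85 ± 0.43 (SE) over R1 with a limma adjusted p of 0.00127. In the R1 library without n number Lefty1 was at 18.7 CPM, and in R9 at 57.8 CPM in O4G and 47.5 CPM in R1. Lefty2, its neighbour, was at 16.7 and 6.72 CPM, 7.27 and 4.59 CPM and 91.9 and 10.5 CPM in the same order. Its value rests mainly on clone library n1: the pairwise adjusted p was 0.0498 and the three-way adjusted p 0.0958. Elobl, a relative of elongin B, was at 3.06 and 4.03 CPM in O4G, 2.34 and 1.97 CPM in R1 and 14.2 and 17.4 CPM in the clone. The clone was thus highest among the numbered libraries. But Elobl was at 16.8 CPM in the R1 library without n number, and in R9 at 21.8 CPM in O4G and 25.1 CPM in R1. Gm48377, Zscan5b, Sgcz, Naalad2 and Dcdc2a were also higher than in R1, by 2.08 to 2.35. Against O4G the clone was also higher in Cldn7, a tight junction claudin, at 10.2 and 10.5 against 1.18 and 2.69 CPM, and in Nnmt, a methyltransferase of nicotinamide, at 5.22 and 3.87 against 0.942 and 0 CPM. Cyp2ab1, Chst3, Gm36584 and Foxr1 complete the 10 largest rises over O4G, with O4G minus the clone between -2.12 and -1.97.

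**Figure D2:**
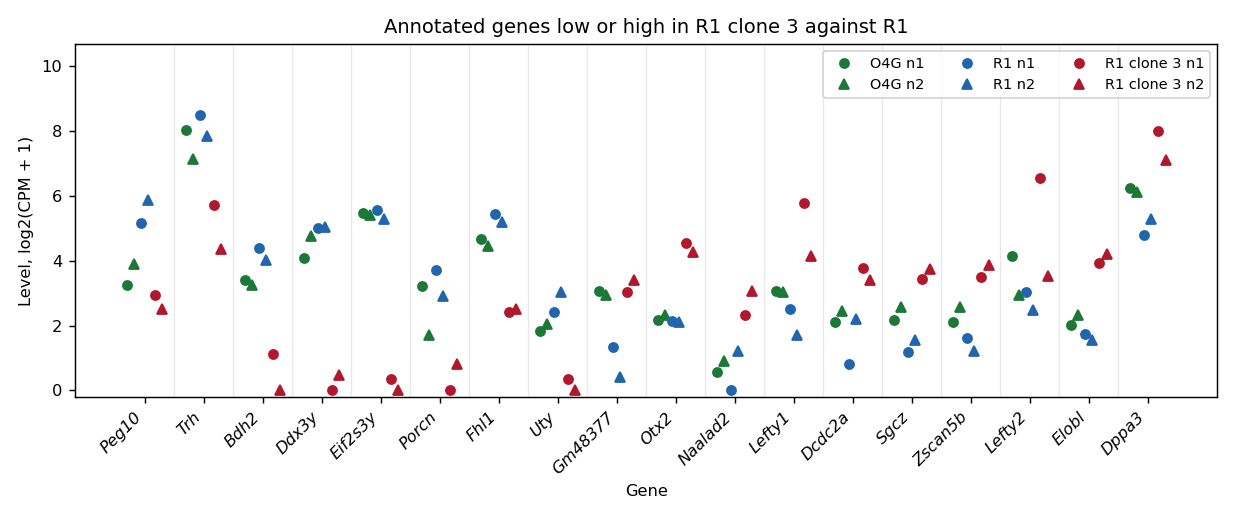
Level, log2(CPM + 1), in the 6 libraries of annotated genes among those with the lowest and the highest R1 clone 3 minus R1 difference; colours give the line, circles n1 and triangles n2. The clone lies below both other lines for Trh, Fhl1 and the chromosome Y genes and above both for Otx2, Lefty1 and Dppa3, while its 2 libraries differ most for Lefty2.

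The state of pluripotency was examined with gene lists, whose members were counted by the three-way test and the pairs. The counts stand beside the 3.78% of all genes that the three-way test called, and no test of a list was made. Of 18 naive pluripotency genes, 2 were called (11.1%, beside 3.78%), Dppa3 and Nr0b1. Nr0b1, a nuclear receptor that represses transcription (chromosome X, 86191751 to 86195947), was at 105 and 90.1 CPM in O4G, 151 and 88.3 CPM in R1 and 45.2 and 25.9 CPM in the clone. The clone was lowest, by -1.72 ± 0.25 (SE) from R1 with a limma adjusted p of 0.000924. The list's median differences were 0.05, 0.09 and -0.09 for O4G minus R1, O4G minus the clone and the clone minus R1. Of 11 general pluripotency genes none was called, with medians of -0.02, 0.19 and -0.40. Esrrb (307 to 437 CPM), Tfcp2l1 (199 to 230 CPM) and Zfp42 (826 to 1180 CPM) were among those that did not pass the size limit.

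Genes of the formative and primed states moved in both directions. Of 9 tested, Otx2, Dnmt3l and Lef1 were called (33.3%, beside 3.78% of all genes). Otx2, the homeobox factor of the transition out of the naive state (chromosome 14, 48657677 to 48667530), was at 3.53 and 4.03 CPM in O4G, 3.37 and 3.28 CPM in R1 and 22.3 and 18.2 CPM in the clone. Among the numbered libraries the clone alone was high, by 2.29 ± 0.29 (SE) over R1 with an adjusted p of 0.000403. Otx2 was at 5.6 CPM in the R1 library without n number, and in R9 at 40.7 CPM in O4G and 56.8 CPM in R1. Dnmt3l, the cofactor of de novo DNA methyltransferases, was at 18.1 and 18.4 CPM in O4G, 23.4 and 23.3 CPM in R1 and 3.77 and 5.81 CPM in the clone. Here the clone was lowest among the numbered libraries, by -2.09 ± 0.25 with an adjusted p of 0.000253. In the R1 library without n number Dnmt3l was at 1.87 CPM, and in R9 at 1.89 CPM in O4G and 5.58 CPM in R1. The enzymes Dnmt3a and Dnmt3b, at 12.5 to 21.3 and 21.3 to 43.6 CPM, were not called. Lef1, a nuclear partner of beta-catenin, was highest in O4G, at 33.9 and 23.7 CPM, with 15.8 and 14.1 CPM in R1 and 10.7 and 5.03 CPM in the clone.

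Targets of ERK signalling included 1, Spry4, that was called lower in R1 clone 3 than in both other lines. Of 15 tested, 6 were called in the three-way test (40.0%, beside 3.78% of all genes). Against R1, 4 were called lower in the clone and 0 higher (1.64% and 1.44% of all genes): Dusp6, a phosphatase of ERK, Spry4, a feedback inhibitor, Myc and Phlda1. Against the clone, O4G was called higher for 3, Spry4, Spred1 and Fos (0.929% of all genes), and Spred1 lost that call with DESeq2 (adjusted p = 0.15). Spry4 was at 6.36 and 2.69 CPM in O4G, 9.60 and 7.55 CPM in R1 and 1.16 and 0.387 CPM in the clone. The difference of the clone from R1 was -2.46 ± 0.41 (SE; limma adjusted p = 0.00212). Myc was at 8.95 and 3.58 CPM, 10.9 and 11.8 CPM and 0.29 and 3.87 CPM in the same order, and lost its call against R1 with DESeq2 (adjusted p = 0.246). DESeq2 gave no adjusted p for Dusp6, Spry4, Phlda1 and Fos, so their calls could not be compared with it. The R1 library without n number had Spry4 at 1.12 CPM and Myc at 2.61 CPM, within the clone's range. Its Dusp6 at 4.48 CPM and Phlda1 at 3.73 CPM lay above the clone. The list's medians were -0.17 for O4G minus R1, 0.48 for O4G minus the clone and -0.96 for the clone minus R1, beside 0, 0 and -0.01 over all genes. Egr1, at 21.7 and 3.14 CPM in O4G and 31.4 and 0.328 CPM in R1, differed between libraries of one line and was not called. Etv5, at 246 to 338 CPM, and Ccnd1, at 106 to 192 CPM, did not pass the size limit, and Ccnd1 was higher in the clone than in R1, by 0.54.

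**Figure D3:**
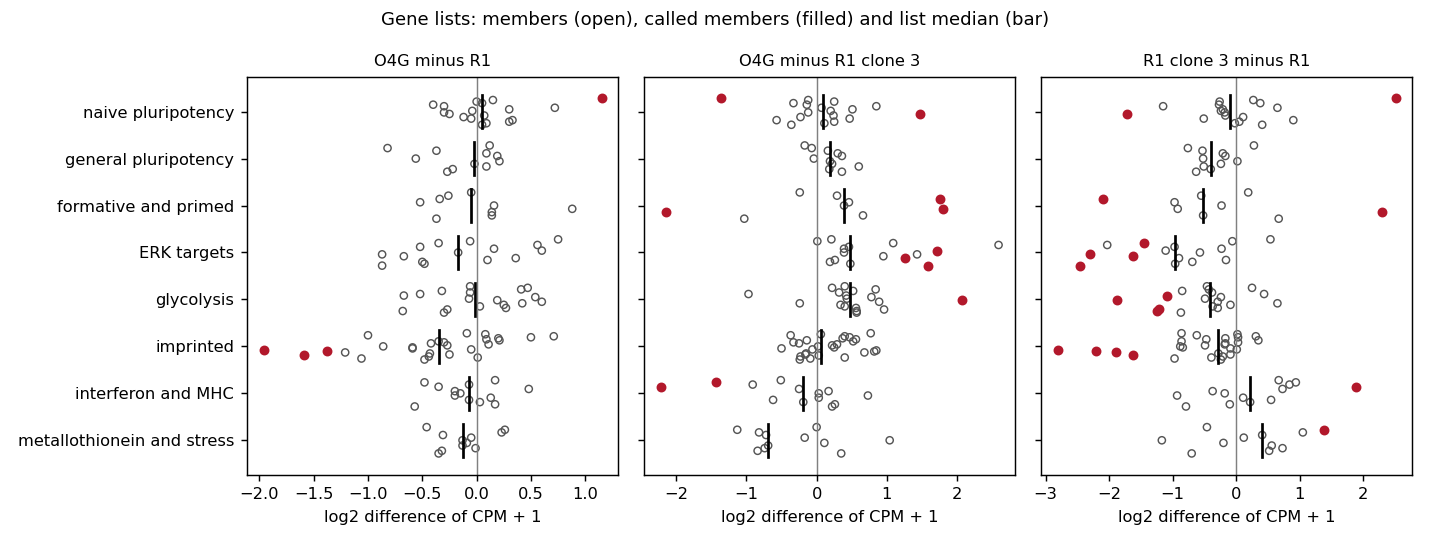
Log2 difference of CPM + 1 of each tested member of 8 gene lists, for the 3 pairs of lines; filled points passed the test, open points did not, and the bar is the list's median. ERK targets and glycolysis genes lie mostly below 0 in R1 clone 3 minus R1, with medians of -0.96 and -0.41, while naive pluripotency genes lie around 0.

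Of 14 Wnt pathway genes, Lef1, Cdx1 and Notum were called (21.4%, beside 3.78% of all genes). Notum, a secreted Wnt antagonist, was at 49.5 and 42.6 CPM in O4G, 18.4 and 14.4 CPM in R1 and 32.2 and 19.8 CPM in the clone. O4G was highest, by 1.44 ± 0.23 (SE) over R1 with a limma adjusted p of 0.00519. Cdx1 was lower in the clone, at 9.28 and 11.2 CPM, than in R1, at 46.5 and 23.3 CPM. Of 11 genes of the LIF and STAT3 list, Bcl3 alone was called (9.09%), on chromosome 7. Its O4G minus R1 difference was -1.07, and with chromosome medians removed -0.82 (adjusted p = 0.157), no longer called. None of 15 p53 pathway genes and none of 12 housekeeping genes was called.

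Imprinted genes called between the lines all lay on chromosomes 6 and 7. Of 27 tested, 4 were called (14.8%, beside 3.78% of all genes), Peg10, Sgce, Peg3 and Phlda2, each highest in R1. Peg10, a retrotransposon-derived gene expressed from the paternal allele (chromosome 6, 4747367 to 4760517), was at 8.48 and 13.9 CPM in O4G, 35 and 58.1 CPM in R1 and 6.67 and 4.65 CPM in the clone. Its neighbour Sgce, a sarcoglycan (4674350 to 4747189), was at 3.77 and 4.93 CPM in O4G, 13 and 17.4 CPM in R1 and 3.77 and 4.65 CPM in the clone. Peg3, a zinc-finger protein (chromosome 7, 6703897 to 6730426), was at 6.12 and 11.6 CPM, 26.7 and 21 CPM and 6.09 and 3.10 CPM in the same order. R1 lay above the other 4 libraries for all 3 genes. Peg10 differed from R1 by -1.96 ± 0.30 (SE) in O4G and -2.81 ± 0.30 in the clone, with limma adjusted p-values of 0.0039 and 0.000143. With chromosome medians removed they were -1.56 (adjusted p = 0.018) and -2.39 (0.000346). For O4G minus R1 the same step moved Sgce from -1.59 to -1.19 (adjusted p = 0.0829) and Peg3 from -1.38 to -1.13 (0.139), both past the size limit and no longer called. For the clone minus R1, Sgce (-1.21, adjusted p = 0.0327), Peg3 (-1.94, 0.00364) and Phlda2 (-1.64, 0.0275) were still called.

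The 14 imprinted genes on chromosomes 6, 7 and 16 had a median of -0.67 for the clone minus R1, and the 13 elsewhere -0.18, with 0 called there. Meg3 and Rian, long non-coding RNAs of the imprinted cluster on chromosome 12, were at 153 to 251 and 134 to 193 CPM over the 6 libraries and were not called. H19 was at or below 1.79 CPM in every library. Mest, a paternally expressed gene on chromosome 6, was at 86.7 and 117 CPM in O4G, 163 and 206 CPM in R1 and 89.0 and 110 CPM in the clone. It was highest in R1 and below the size limit in both differences, -0.86 and -0.88.

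Genes of glucose uptake and glycolysis included 4 of 18 that were called lower in R1 clone 3 than in R1 and 0 that were called higher, beside 1.64% and 1.44% of all genes. They were Slc2a3 and Slc2a1, which carry glucose into the cell, Hk2, which phosphorylates it, and Pdk1, which holds pyruvate back from the mitochondria. Slc2a1 (chromosome 4, 119108720 to 119137999) was at 103 and 74.8 CPM in O4G, 111 and 101 CPM in R1 and 49.9 and 40.3 CPM in the clone. Pdk1 (chromosome 2, 71873288 to 71903847) was at 30.9 and 19.7 CPM in O4G, 31.9 and 14.4 CPM in R1 and 6.67 and 3.87 CPM in the clone. The clone was lowest for both among the numbered libraries, with differences from R1 of -1.22 ± 0.16 and -1.88 ± 0.35 (SE) and limma adjusted p-values of 0.000628 and 0.00433. The R1 library without n number had Slc2a1 at 44.8 CPM and Pdk1 at 5.23 CPM, within the clone's range. It had Slc2a3 at 322 CPM, below the clone, and Hk2 at 720 CPM, above all numbered libraries. Slc2a3 and Hk2 lie on chromosome 6, and R1 was highest for both: Slc2a3 at 974 and 906 CPM in R1, 594 and 582 CPM in O4G and 374 and 416 CPM in the clone. With chromosome medians removed, Slc2a1 and Pdk1 were still called and Slc2a3 and Hk2 fell short of the size limit, with differences of -0.83 and -0.67. The span deposited for Slc2a3 overlaps that of Nanog, so its reads are uncertain. The list's median was -0.41 for the clone minus R1, and 8 of its members lie on chromosomes 6, 7 and 16.

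Of 13 interferon and histocompatibility genes, H2-K1 and Bst2 were called (15.4%, beside 3.78% of all genes). H2-K1, a heavy chain of class I molecules (chromosome 17, 33996012 to 34000284), was at 6.12 and 1.79 CPM in O4G, 5.97 and 3.61 CPM in R1 and 20.3 and 19.4 CPM in the clone. Among the numbered libraries the clone alone was high, by 1.88 ± 0.40 (SE) over R1 with a limma adjusted p of 0.00966. H2-K1 was at 5.23 CPM in the R1 library without n number, and in R9 at 46.4 CPM in O4G and 31.6 CPM in R1. Bst2, tetherin, which holds viruses at the cell surface, was at 49.0 and 44.8 CPM, 59.7 and 72.5 CPM and 133 and 122 CPM in the same order, and lies on chromosome 8. The interferon-induced gene Isg15 was at or below 0.29 CPM in all 6 libraries, and Psmb8 was at 0. H2-K1 belongs to a family with close copies, between which counting could split reads.

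Metallothioneins Mt1 and Mt2, which bind zinc and copper, were higher in the clone but short of the size limit. Mt2 was at 1490 and 1680 CPM in O4G, 1440 and 1770 CPM in R1 and 2680 and 2620 CPM in the clone, 0.73 above R1. Both metallothionein genes lie on chromosome 8. Of 18 germline genes tested, Rhox6, Rhox9 and Xlr3c, all on chromosome X, were called (16.7%, beside 3.78% of all genes). Xlr3c was low in O4G, at 27.6 and 39.9 CPM, against 83.1 and 70.2 CPM in R1 and 103 and 110 CPM in the clone, an O4G minus R1 difference of -1.18 ± 0.17 (SE; limma adjusted p = 0.00302). Rhox6, a homeobox gene of the germline, was highest in R1, at 29.8 and 39.7 CPM, with 15.1 and 24.2 CPM in O4G and 6.38 and 9.68 CPM in the clone. Both families have close copies on chromosome X, between which reads could be split. Of 7 primitive endoderm genes 2 were called in the three-way test (28.6%). Col4a1 and Col4a2, neighbouring genes of basement membrane collagen on chromosome 8, were lower in the clone than in R1, at 2.03 and 1.55 against 4.93 and 9.19 CPM and at 0.29 and 0 against 3.89 and 3.28 CPM. Of 17 long non-coding RNAs of the list, Neat1, which forms nuclear paraspeckles, was called (5.88%): 87.1 and 65.4 CPM in O4G, 81.2 and 60.1 CPM in R1 and 37.7 and 26.3 CPM in the clone, which was lowest. Vim, the one neural progenitor marker called in the three-way test, was lowest in the clone as well, at 189 and 164 CPM against 345 and 366 CPM in O4G. Nes, another such marker, was called higher in the clone than in R1 by the pairwise test alone.

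Unannotated genes were named by the same rule. One antisense to Cnksr2 on chromosome X was at 1.65 and 3.14 CPM in O4G and at 0 in the 4 libraries of R1 and the clone. One antisense to Cald1 on chromosome 6 was at 11.7 and 15.4 CPM in R1, 2.83 and 4.03 CPM in O4G and 1.45 and 5.03 CPM in the clone. With chromosome medians removed, neither was called in O4G minus R1 (limma adjusted p = 0.0977 for Cnksr2 and 0.157 for Cald1). The Cnksr2 gene was also not called in O4G minus R1 clone 3 (0.0562). The Cald1 gene was still called in R1 clone 3 minus R1 (-1.49, 0.0463). A numbered gene on chromosome 8 was at 9.28 and 7.75 CPM in the clone and between 1.41 and 2.24 CPM in the other 4 libraries. Whether counting used strand is not given in the sources used here, so antisense genes cannot be told apart from reads of their partners.

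Long reads give whole transcripts, and these were compared as log2(TPM + 1). Few passed: of 59911 transcripts tested, limma called 3 in the three-way test (0.00501%), 3 for O4G against R1 (0.00501%), 0 for O4G against R1 clone 3 (0.0%) and 8 for the clone against R1 (0.0134%). When any single library was left out, at most 1 transcript was called in each comparison. A transcript of Mrpl12, a protein of the mitochondrial ribosome (chromosome 11, 120484674 to 120488703), was at 40.5 and 44.6 TPM in R1, 0.792 and 0.646 TPM in O4G and 0.134 and 0.909 TPM in the clone. R1 alone was high, with an O4G minus R1 difference of -4.66 and an adjusted p of 0.0402. It made up 13.2 and 12.3% of the gene's TPM in R1 and at most 0.303% in the other 4 libraries. This transcript has 3 exons of 95, 2992 and 386 bases, a combination of known splice sites outside the annotation, and its long exon holds 2 of the 4 introns of the annotated transcript. It was at 0 in both R9 libraries, at 5.98 TPM in the R1 library without n number and at up to 5.53 TPM in the 36 other libraries.

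A transcript of Gas5, a small nucleolar RNA host gene (chromosome 1, 161035163 to 161038539), was at 203 and 210 TPM in R1, 492 and 502 TPM in O4G and 506 and 512 TPM in the clone. R1 was lowest, with an O4G minus R1 difference of 1.26 (adjusted p = 0.032). A transcript antisense to Cdc37 was at 239 and 220 TPM in R1, 569 and 478 TPM in O4G and 755 and 773 TPM in the clone. One of Fam25c was highest in O4G, at 150 and 135 TPM against 29.4 and 25.4 TPM in R1 and 67.8 and 63.5 TPM in the clone. A Cmc1 transcript was lowest in the clone, at 9.88 and 7.20 TPM against 84.9 and 66.6 TPM in R1. One of Ooep, a gene of the oocyte and early embryo, was highest there, at 266 and 265 TPM against 99.9 and 94.0 TPM.

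The share of each transcript in its gene gave no call. Of 21148 transcripts in 5849 genes, limma on arcsine-transformed shares called 0 with at least 20 points between lines (0.0%), the smallest adjusted p was 0.327, and 1314 were at an unadjusted p under 0.05. The test of differential splicing in limma (diffSplice) called 0 of 8324 genes, with 882 at an unadjusted p under 0.05. The largest gap was in Gatad2b, a subunit of the NuRD repressor complex: 1 transcript held 69.4 and 62.5% of the gene in O4G, 74.2 and 45.0% in R1 and 0% in both clone libraries (three-way adjusted p = 0.332). The gene's total there was 20.0 and 21.2, 20.9 and 10.7, and 4.31 and 3.61 TPM. In Kansl1 a transcript held 39.7 and 73.6% in O4G and 0% in the clone, and in Slc37a3 one held 55.4 and 27.9% in O4G, 52.4 and 49.0% in R1 and 0% in the clone, with totals of 5.28 to 18.8 TPM over the 2 genes. Between O4G and R1 the largest gap was in Socs6, a suppressor of cytokine signalling, where 1 transcript held 0 and 17.9% in O4G and 58.5 and 71.6% in R1.

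As a check of sign, the genes called between O4G and R1 in R10 were read in the R9 libraries, with 1 library per line and so no test within R9. Of the 116 genes, 113 differed in R9, and 44 of them had the same sign (38.9%, exact Clopper-Pearson 95% interval 29.9 to 48.6%), beside 47.5% of all 14023 genes. The interval treats genes as independent, which they are not, and does not cover the spread between libraries. Genes called higher in O4G had the same sign in 14 of 54 cases (25.9%) and genes called lower in 30 of 59 (50.8%). On chromosomes 6, 7 and 16 it was 18 of 38 (47.4%), and elsewhere 26 of 75 (34.7%). The share of equal signs was thus no higher among the called genes than over all genes. The R9 and R10 libraries differ in chemistry, RNA selection and depth, and the labels do not tie them to the same cultures, so these cannot be told apart. S100a1 was at 30.3 CPM in O4G and 43.7 CPM in R1 in R9, the same order as in R10, and Peg10 at 0 and 4.65 CPM likewise. Gtsf1l, at 35 and 64.2 CPM, and Agpat4, at 0 and 2.79 CPM, were lower in O4G in R9 and higher in R10. An R9 library of R1 clone 3 was not analysed here.

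**Figure D4:**
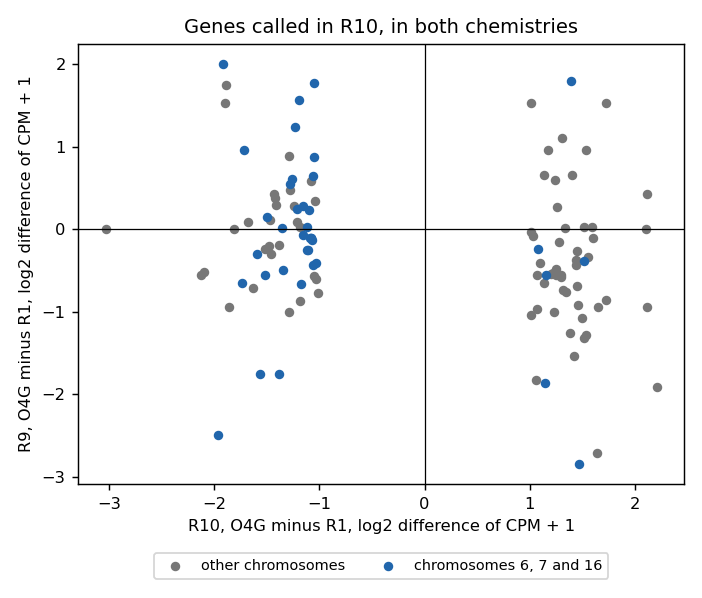
R9 against R10 log2 difference of CPM + 1, O4G minus R1, of the genes called between O4G and R1 in R10; blue points lie on chromosomes 6, 7 and 16. The points fall in all 4 quadrants, with 44 of 113 in those of equal sign.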

How the data were processed

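The authors deposited gene values as CPM and transcript values as TPM. Reads were aligned with minimap2 2.24-r1122 to mm10, per the submitters' processing notes; the counting program's version, its filters and its use of strand are not given in the sources used here. The transcript models and their classification, per the file headers, gave other features such as exon number and length. Gene CPM were whole multiples of 1 read (100% of values within 0.02 reads), which gave the total of reads on genes per library. TPM keep no depth. A set of 13 columns of the gene table matched no sample and was not used, and 20 entries without a gene name were left out, which left 23555 genes. Gene positions came from the deposited transcript models, and gene classes from GENCODE mouse release 21 and then RefSeq. GENCODE positions overlapped the deposited ones for 99.9% of 17740 genes. Promoters came from RefSeq on GRCm38.p6.

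The 6 R10 libraries entered 1 limma fit (version 3.58.1 in R 4.3.3, trend, no covariate) on log2(CPM + 1) or log2(TPM + 1). Features with at least 1 CPM or TPM in at least 2 libraries were tested, with a three-way F test and 3 pairwise contrasts, two-sided, adjusted by Benjamini-Hochberg. The call rule was an adjusted p under 0.05 and a log2 difference of at least 1. The F test has 3 residual degrees of freedom, to which limma adds 10.6 from the other genes. Transcript shares were tested after the arcsine square root, in genes of at least 10 TPM on average. On simulated counts for 14343 genes, 30% of 100 genes changed 2-fold and 95% of 100 changed 4-fold in R1 clone 3 against R1 were called, with 11 unchanged genes called. These counts had the same fixed spread for every gene and no chromosome shifts. A 2-fold change lies at the size limit itself, so many such genes miss it by rule. The shares may thus not hold for the real libraries. The recovered reads were also tested with edgeR 4.0.16 and DESeq2 1.42.0, and further alternatives were other pseudocounts, filters and scalings, thinned reads, left-out libraries and a replicate block. Residuals of libraries with the same number correlated at 0.16 for O4G and R1, 0.07 for O4G and R1 clone 3 and 0.13 for R1 and R1 clone 3, so the numbers were not taken to pair the samples. A comparison of CG content over called genes was void, because under 80% of genes had a promoter in the table.

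Genes are named by rule: for each pair of lines the 10 highest and 10 lowest called annotated genes whose libraries do not overlap, with 2 unannotated genes each way; list members that the three-way test calls; the naive list with Pou5f1, Sox2 and Nanog; called chromosome Y genes; and for shares the 5 genes with the largest difference. A few genes that meet the rule are not reported here. Other named genes were chosen after their values were seen. The members and the gene lists were chosen with earlier results of these data known.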

Additional observations from a re-analysis of the deposited data

Results flagged for a closer look

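The difference between O4G and R1 was itself different between R9 and R10 for 8 of the named genes called in that pair. The test was limma over both kinds of library with a term for their interaction and Benjamini-Hochberg adjustment. All but Dppa3 were named for a large R10 difference of this pair, and all were called in it. The same R10 values enter the test, so it is biased towards a difference and its p-values are too small. R9 gives 1 library per line, so its spread is assumed to be that of R10. As R9 minus R10 values of O4G minus R1 on the log2(CPM + 1) scale, Tiam2 was at -4.36 (adjusted p = 0.0218), Agpat4 at -4.14 (0.0226), Ephx2 at -2.60 (0.0226) and Gtsf1l at -2.59 (0.0152). These 4 genes were higher in O4G in R10 and lower in R9. Dppa3 was at -3.01 (adjusted p = 0.0218): it was higher in O4G than in R1 in R10, and at 72.0 CPM in O4G and 263 CPM in R1 in R9. Pianp was at 3.93 (adjusted p = 0.0226) and Igfbp7 at 3.63 (0.0445), both lower in O4G in R10 and higher in R9, where Igfbp7 was at 124 CPM in O4G and 36.3 CPM in R1. S100a1 was at 1.58 (adjusted p = 0.0375), with the same sign in both and a smaller difference in R9. Over all 15218 genes tested, 335 had an adjusted p under 0.05 for this term (2.2%), and 37 of the 116 genes called between O4G and R1 were among them. RNA selection, amplification and culture differ along with the flow cell, and their part was not tested.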

How the results depend on the processing

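None of the 150 called differences of named genes changed sign under the alternatives run. The shifted medians of chromosomes 3, 6, 7, 8, 16 and X kept their sign with median centring and with genes of at least 5 CPM. The fit with chromosome medians removed takes them away by design, so it cannot check them. In R9, O4G minus R1 had the opposite sign on chromosome 6, at 0.22. Nanog, which was not called, went from -0.30 to 0.10 in O4G minus R1 and from -0.18 to 0.24 in R1 clone 3 minus R1 with chromosome medians removed. With DESeq2 the counts of genes were 302 three-way, 55 for O4G minus R1, 136 for O4G minus R1 clone 3 and 230 for R1 clone 3 minus R1, and with reads thinned to the shallowest library 313, 53, 133 and 293. The fit with a replicate block called 874, 237, 467 and 633 genes, and 13, 7, 0 and 18 transcripts. The R1 library without n number left 4, 0, 1 and 5 genes. Leaving out 1 library gave 343 to 475, 9 to 129, 87 to 245 and 214 to 381 genes, and 0 to 0, 0 to 0, 0 to 0 and 0 to 1 transcripts. With chromosome medians removed, chosen after seeing the data, 69 genes were called for O4G minus R1. Median centring changed the split of R1 clone 3 minus R1 from 212 higher and 242 lower to 269 and 217, and that of O4G minus R1 from 55 and 61 to 66 and 56. The cause of these changes was not tested, beyond the fewer libraries or reads of some settings.

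For transcripts, a pseudocount of 0.25 called 0 three-way, 0 for O4G minus R1 and 2 for R1 clone 3 minus R1, no filter called 9 three-way and 5 for O4G minus R1, and a minimum of 5 TPM called 36, 5, 16 and 61 over the 4 tests. Median centring gave chromosome 6 -0.37 in both differences from R1, chromosome 7 -0.20 in O4G and -0.22 in the clone, chromosome 16 -0.27 in both, chromosome 3 -0.20 and chromosome 8 0.34 in R1 clone 3 minus R1, and chromosome X 0.16 in O4G minus R1. Genes of at least 5 CPM gave R1 clone 3 minus R1 of -0.46 on chromosome 6, -0.30 on 7, -0.35 on 16 and -0.28 on 3, and O4G minus R1 clone 3 of 0.30 on chromosome 3. Of 150 calls of named genes in a pair, 49 passed under every alternative but the R1 library without n number, under which 145 were lost. Those 49 include Eif2s3y, Ddx3y, Fhl1, Bdh2 and Dnmt3l in R1 clone 3 minus R1. With 2 libraries per line and 2226725 to 4236442 reads, genes near 1 CPM rest on a few reads.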
